A study of Mus musculus with 8 samples.

Results

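The miR-26 family was measured in whole kidneys of diabetic Akita mice and of control mice on one-colour Agilent miRNA arrays. Its 5 members are mmu-miR-26a-5p, mmu-miR-26b-5p, mmu-miR-26a-1-3p, mmu-miR-26a-2-3p and mmu-miR-26b-3p, written without the species prefix from here on, and they were taken by name from the array annotation, among 1881 mouse miRNAs with probes. The 2 members on the 5p side of their hairpins were bright on all 8 arrays and were 2 of the 285 miRNAs tested. The 3 members on the 3p side were not well above background on any array and were not tested.

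The groups were 4 kidney samples of male C57BL/6J mice (control, named Mock in the sample titles) and 4 of male C57BL/6-Ins2Akita/J mice (Akita), with 1 array per sample. The Akita allele of Ins2, an insulin gene, yields a misfolding proinsulin that damages the beta cells of the pancreas, and these mice turn diabetic without an added agent. The labels give the age of all 8 samples as 36 without a unit, name no treatment behind the word Mock, and do not tie each sample to a separate mouse, so p-values cover only the spread among these samples, which may be technical. The design asks how kidney miRNAs differ between the strains. RNA came from homogenised kidney, so fewer cells of a type and less RNA per cell cannot be told apart.

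A miRNA is cut from a hairpin precursor, and one arm of the hairpin is usually loaded into an Argonaute protein as the guide while the other, the passenger, is mostly lost. The guide pairs with target mRNAs chiefly through its seed, bases 2 to 8 from its 5′ end. The miR-26 hairpins are transcribed together with genes of the small CTD phosphatase family, which act on the tail of RNA polymerase II. Known targets of the miR-26 guides include Ezh2, the histone methyltransferase of the Polycomb complex, and Ccn2, the matrix-associated growth factor also called CTGF. In kidney, miR-26a has been studied in podocytes, the filtration barrier cells in which Ccn2 promotes matrix production.

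The mature sequences show why the 5p arms form 1 family for targeting and the 3p arms do not. They are RefSeq sequences (GRCm38.p6 table), in which all 5 members were matched, given 5′ to 3′ with the seed in capitals.
miR-26a-5p: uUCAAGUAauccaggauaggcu
miR-26b-5p: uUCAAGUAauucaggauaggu
miR-26a-1-3p: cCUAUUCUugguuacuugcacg
miR-26a-2-3p: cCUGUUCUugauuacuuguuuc
miR-26b-3p: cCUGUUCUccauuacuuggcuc
The seed UCAAGUA was held by miR-26a-5p and miR-26b-5p and by no other of the 1608 array miRNAs with a sequence in that table. Counted from the 5′ end, the 5p arms differed over their 21 shared positions by C11U and C21U, where the first base is that of miR-26a-5p, which is also 1 base longer. Both differences lie outside the seed. The 3p arms of miR-26a-2 and miR-26b shared the seed CUGUUCU, also held by miR-6932-3p and miR-7039-3p, and differed from each other by U9C, G10C, U19G and U20C. The seed CUAUUCU of miR-26a-1-3p was held by no other array miRNA with a sequence.

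MiR-26a-5p has 2 genomic copies and its signal cannot be assigned to either. Per the array annotation (mm9), its probes map to chr9:118940935-118940950 and chr10:126432605-126432620, and those of miR-26b-5p to chr1:74440900-74440918. The 3p probes map close by, those of miR-26a-1-3p at chr9:118940975-118940989, of miR-26a-2-3p at chr10:126432640-126432658 and of miR-26b-3p at chr1:74440937-74440955. In the RefSeq table, Mir26a-1 overlapped Ctdspl on chromosome 9, Mir26a-2 overlapped Ctdsp2 on chromosome 10 and Mir26b overlapped Ctdsp1 on chromosome 1. These are the small CTD phosphatase genes, and the table gives no exons, so that intron or exon is not stated here.

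The probes that read the 5p arms are short DNA complements anchored at the 3′ end of the miRNA, and they decide how well the arms are told apart. They are printed 5′ to 3′, with the bases that have no strict complement (A to U, G to C) in the other 5p arm in capitals.
miR-26a-5p, shorter probe: AGcctatcctgGatt
miR-26a-5p, longer probe: AGcctatcctgGatta
miR-26b-5p, shorter probe: AcctatcctgAattacttg
miR-26b-5p, longer probe: AcctatcctgAattacttga
Each miR-26a-5p probe had 3 bases without a strict complement in miR-26b-5p, and each miR-26b-5p probe had 2 without one in miR-26a-5p. Of the 3, 1 lies past the end of the shorter miR-26b-5p and 2 are G facing U, which can form a weaker wobble pair. The 2 of the miR-26b-5p probes are A facing C. These counts therefore do not rank the probes by how well they tell the arms apart. The miR-26a-5p probes covered 1 and 2 bases of the shared seed and the miR-26b-5p probes 6 and 7. Signal of one arm on the probes of the other was not tested.

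Signals are in the scanner's linear intensity units. Each array was divided by its own 75th percentile over 451 probes detected well above background everywhere, probes of one miRNA were summed, and log2 was taken, which gives the log2 scaled signal used for the test. Differences are Akita minus control. Before scaling, that percentile was 506.7 ± 10.3 (SD, n = 4) in control and 420.8 ± 35.2 (n = 4) in Akita, 17.0% lower in Akita, so that the choice of scaling bears on every difference below. All 8 arrays lay on 1 slide, with the controls in one row and the Akita samples in the other, and row and group cannot be told apart. Of the markers of cell types a kidney sample can hold, 5 of 6 kidney tubule miRNAs were tested and 0 were called, with a median difference of -0.09. Of 7 leukocyte miRNAs 6 were called lower in Akita kidneys, where 6.32% of all tested miRNAs were. The other had a lower mean in Akita too (-0.35, limma adjusted p = 0.0896). The median of the leukocyte miRNAs was -0.55, and their summed log2 signal was 10.56 to 10.85 in control and 9.84 to 10.05 in Akita. Both endothelial and both smooth muscle miRNAs were tested and 0 were called (medians 0.13 and -0.01), and neither the 4 striated muscle miRNAs nor the liver miRNA miR-122-5p entered the test. Of 5 erythrocyte miRNAs 1 was tested, miR-451a, at 6.45 to 10.24 in control and 9.19 to 9.60 in Akita. The part of these markers in the results for the miR-26 family was not tested.

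MiR-26a-5p, the brighter arm, had nearly equal means in the groups on the scaled signal. Its scaled signals were 8015, 8771, 8382 and 8312 in control replicates 1 to 4 and 8330, 7486, 7858 and 8488 in Akita replicates 1 to 4. Akita replicates 2 and 3 lay below all controls and Akita replicates 1 and 4 lay within the control range, so the groups overlapped. The mean log2 scaled signal was 13.03 ± 0.05 in control and 12.97 ± 0.08 in Akita (SD, n = 4 each). The log2 difference was -0.06 ± 0.07 SE (95% interval -0.21 to 0.09, limma, adjusted p = 0.566), or 4.01% lower in Akita. That interval leaves room for a fall of 0.21 and a rise of 0.09 on the log2 scale.

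MiR-26b-5p had the lower mean in Akita, with groups that just overlapped, and the difference did not pass the threshold of 0.05. Its scaled signals were 2812, 3166, 3037 and 2976 in control replicates 1 to 4 and 2824, 2324, 2656 and 2805 in Akita replicates 1 to 4. Akita replicates 2, 3 and 4 lay below every control, and the overlap came from Akita replicate 1, which lay just above control replicate 1. The mean log2 scaled signal was 11.55 ± 0.07 in control and 11.37 ± 0.13 in Akita (SD, n = 4 each). The log2 difference was -0.18 ± 0.08 SE (95% interval -0.36 to 0.0037, unadjusted p = 0.0538, limma adjusted p = 0.152), or 11.7% lower in Akita.

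So 0 of the 2 tested members were called, where 14.7% of the 285 tested miRNAs were (42 miRNAs, of which 24 were higher and 18 lower in Akita). Groups did not overlap for 22.8% of the tested miRNAs (13.7% with Akita higher, 9.12% with Akita lower) and for 0 of the 2 members. The unadjusted p was under 0.05 for 34% of the tested miRNAs (97) and again for 0 of the 2 members. The median difference over all tested miRNAs was 0.06, which places miR-26a-5p 0.12 and miR-26b-5p 0.24 below it. Among miRNAs of like brightness (within 1 log2 unit, a comparison chosen after the values were seen), 2 of 16 had a lower difference than miR-26a-5p and 3 of 28 a lower one than miR-26b-5p.

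**Figure D1:**
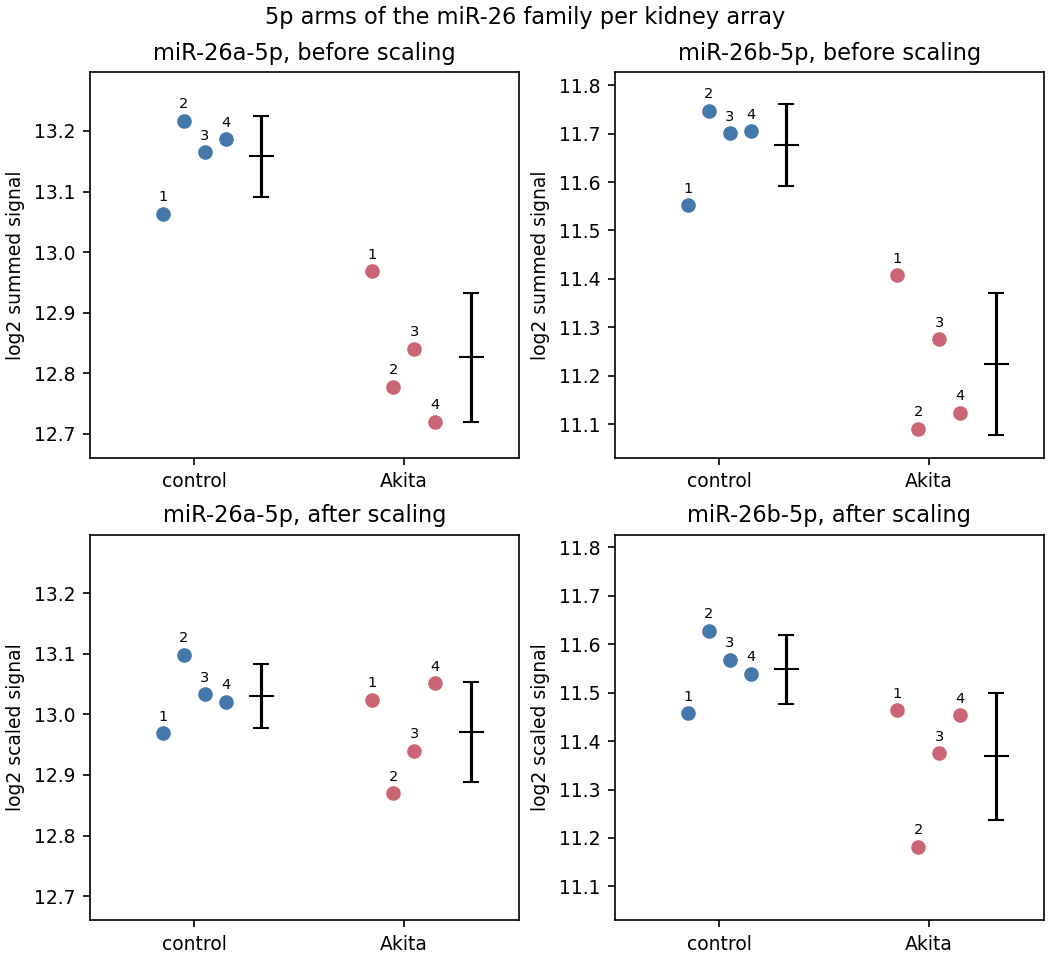
Signals of miR-26a-5p and miR-26b-5p on the 8 arrays, as log2 summed signal before scaling and log2 scaled signal after it, with points numbered by replicate and bars giving the mean ± SD of 4 arrays. The groups separate before scaling and overlap after it for both arms.

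Before any scaling the arms were lower on every Akita array than on every control array, as were 33.3% of the tested miRNAs. The summed signal of miR-26a-5p was 8562, 9520, 9185 and 9321 in control replicates 1 to 4 and 8015, 7024, 7335 and 6749 in Akita replicates 1 to 4. That of miR-26b-5p was 3003, 3436, 3328 and 3338 in control and 2717, 2180, 2479 and 2230 in Akita. Without scaling the log2 differences were -0.33 for miR-26a-5p (limma, adjusted p = 0.0073) and -0.45 for miR-26b-5p (adjusted p = 0.0045), where 36.5% of tested miRNAs were called lower and the median of all tested miRNAs was -0.21. With each array scaled to its labelling spike-ins they were -0.30 (adjusted p = 0.0044) and -0.42 (adjusted p = 0.0028), where 37.5% were called lower and the median was -0.18. With the 75th percentile taken over all probes the difference of miR-26a-5p turned to 0.033 (adjusted p = 0.917) and that of miR-26b-5p was -0.087 (adjusted p = 0.802), with a median of 0.16 for all tested miRNAs.

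The call for miR-26b-5p thus rested on the processing, and its sign did not. Its difference was below 0 in all 26 alternatives and passed the threshold in 5 of them. Other floors, filters and fits and the replicate block left it at -0.18, so its sign could not change there. Beside the unscaled and spike-in settings these were quantile normalization (-0.20, limma adjusted p = 0.0104, 9.47% of tested miRNAs called lower), cyclic loess (-0.20, adjusted p = 0.0076, 14.4% called lower) and normexp background correction (-0.19, adjusted p = 0.0451, 2.81% called lower). MiR-26a-5p passed under cyclic loess too (-0.10, adjusted p = 0.0444). Taken relative to the median of all tested miRNAs, the difference ran from -0.22 to -0.06 for miR-26a-5p and from -0.32 to -0.18 for miR-26b-5p over the 27 settings, the reported one included.

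**Figure D2:**
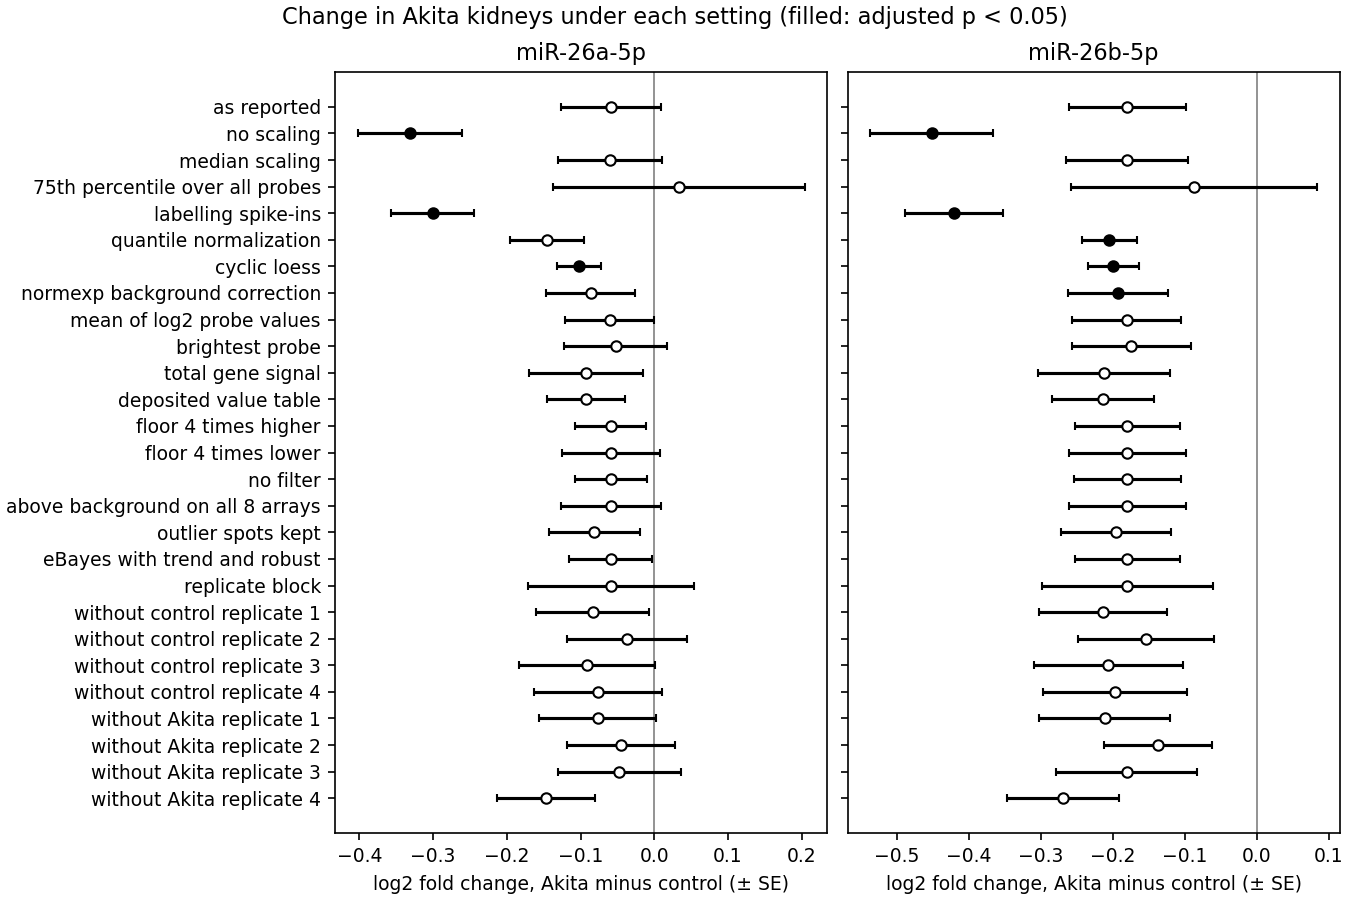
Log2 difference, Akita minus control, of miR-26a-5p and miR-26b-5p under 27 settings, with bars of 1 SE and filled points where the adjusted p was under 0.05. Points of miR-26b-5p lie below 0 under every setting shown, and those of miR-26a-5p do so under all but the percentile over all probes.

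The single probes of each arm gave differences of like size. For miR-26a-5p they were -0.07 on the 15-base probe and -0.05 on the 16-base probe, and for miR-26b-5p -0.19 on the 19-base probe and -0.17 on the 20-base probe. The longer probe of miR-26a-5p was brighter by 1.47 ± 0.01 times in control and 1.49 ± 0.03 times in Akita, and that of miR-26b-5p by 1.51 ± 0.04 and 1.52 ± 0.01 times (SD, n = 4 each). Each probe was printed as 15 spots, of which 11 to 15 were used, and the spots of a probe varied by 0.54% to 5.00% on an array. No spot of a member was saturated. The probes of an arm read the same RNA on the same array and are not replicates of it.

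The ratio of the 5p arms within an array needs no scaling between arrays, and in it the groups did not overlap. The log2 ratio of miR-26a-5p to miR-26b-5p was 1.51, 1.47, 1.46 and 1.48 in control replicates 1 to 4 and 1.56, 1.69, 1.56 and 1.60 in Akita replicates 1 to 4. Every Akita array lay above every control array, and Akita replicate 2, the array with the lowest miR-26b-5p, was the highest. The mean was 1.48 ± 0.02 in control and 1.60 ± 0.06 in Akita (SD, n = 4 each). The difference of 0.12, a 1.09-fold higher ratio in Akita, gave p = 0.0286 by an exact two-sided permutation test over 70 assignments (adjusted over 2 measures, 0.0286), which is the smallest p this design allows. On the linear scale the signal ratio was 2.79 ± 0.04 in control and 3.04 ± 0.13 in Akita. It compares the brightness of different probes, so it is no ratio of molecules. The difference shows that the signals of the arms changed unequally, without showing which changed, and its cause was not tested. With quantile normalization it was 0.060 (exact p adjusted, 0.314). How often the ratio of other pairs of tested miRNAs separates the groups was not counted. On the scaled signals of single miRNAs the groups did not overlap for 22.8% of those tested. The separation is therefore not shown to be particular to this pair.

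Together the 5p arms held a smaller share of the summed signal of all 285 tested miRNAs in Akita kidneys. The share was 1.57%, 1.64%, 1.69% and 1.66% in control replicates 1 to 4 and 1.48%, 1.37%, 1.46% and 1.37% in Akita replicates 1 to 4. Every Akita array lay below every control array. The mean was 1.64 ± 0.05% in control and 1.42 ± 0.06% in Akita (SD, n = 4 each), a log2 difference of -0.21 (exact two-sided permutation p = 0.0286, adjusted over 2 measures 0.0286). This share depends on what else is bright. MiR-6366 alone made up 31.5% of the summed signal in control and 33.5% in Akita, and miR-3963 25.4% and 25.3%. From control to Akita, miR-5100 went from 5.15% to 5.38%, miR-3968 from 2.71% to 2.85% and miR-30a-5p from 1.48% to 1.52%. Let-7a-5p went from 1.76% to 1.59%, let-7f-5p from 1.72% to 1.62% and let-7c-5p from 1.54% to 1.35%, so a smaller share was not particular to the family. Whether these or any other shares differ between the groups was not tested, so no rate stands beside the separation seen for the family. In that sum miR-26a-5p ranked 10 and miR-26b-5p ranked 32. With the 1, 2, 5 or 10 brightest other miRNAs left out, an alternative added after the data were seen, the log2 difference was -0.17, -0.14, -0.12 and -0.10, with an exact p of 0.0286 each time. With quantile normalization it was -0.16 (exact permutation p = 0.0286, adjusted over 2 measures 0.0571).

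**Figure D3:**
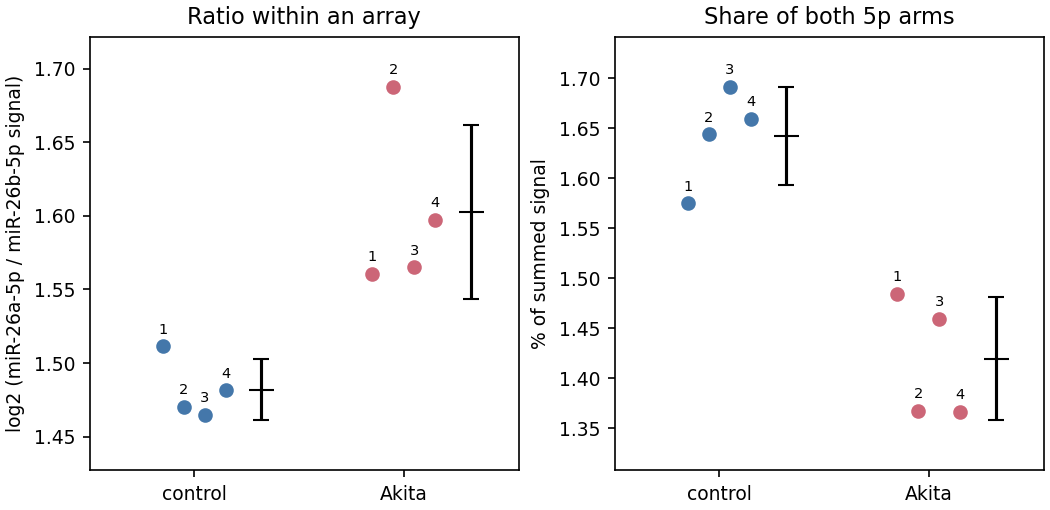
Left, log2 ratio of the miR-26a-5p signal to the miR-26b-5p signal within each array. Right, percent of the summed signal of all 285 tested miRNAs held by both 5p arms. Points are arrays numbered by replicate and bars give the mean ± SD of 4 arrays, and in neither panel do the groups overlap.

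In the ratios of the authors' deposited table, which set each miRNA against its own median over the 8 arrays, miR-26b-5p lay between 1.01 and 1.15 in control and between 0.852 and 0.991 in Akita, without overlap. There, the groups of 11.6% of the tested miRNAs were apart with Akita lower. In the same authors' deposited table miR-26a-5p lay between 0.983 and 1.09 in control and between 0.938 and 1.00 in Akita. From the authors' deposited table the log2 differences were -0.093 for miR-26a-5p (limma, adjusted p = 0.260) and -0.21 for miR-26b-5p (adjusted p = 0.0929), so neither passed. The sources used here do not state how that table was scaled.

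The 3p arms, the passenger side of these hairpins, gave no detectable signal in either group. Their summed unscaled signals ran from -4.45 to -0.51 for miR-26a-1-3p, from -0.73 to 2.91 for miR-26a-2-3p and from 5.02 to 13.4 for miR-26b-3p. The lowest sum of a miRNA that was above background was 17.4 to 27.2 over the arrays, and the negative control spots had means of -0.12 to 2.94 with an SD of 3.28 to 3.75. For miR-26b-3p the sums were 9.56, 11.7, 13.4 and 7.37 in control replicates 1 to 4 and 12.02, 10.7, 5.02 and 9.62 in Akita replicates 1 to 4, so the groups overlapped. Averaged over the arrays, its 4 probes were brighter the longer they were. The means were -0.22, 1.49, 3.05 and 5.60 for 17, 18, 19 and 20 bases, and they lay above the mean of the negative controls on 1, 5, 7 and 8 of the 8 arrays. No miR-26b-3p probe was well above background on any array, and no level or group difference was drawn from these values.

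**Figure D4:**
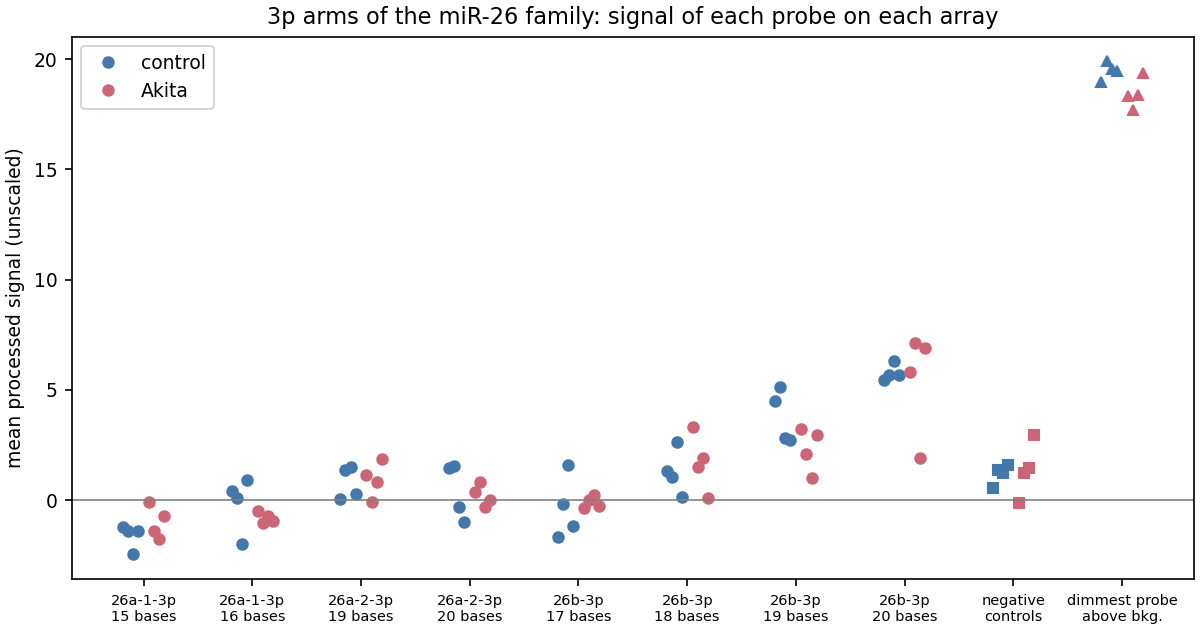
Mean unscaled signal, in scanner intensity units, of the probes of the 3p arms by probe length on each array, beside the mean of the negative control spots (squares) and the dimmest probe well above background (triangles). All 3p probes lie below the dimmest detected probe. The means of the miR-26b-3p probes over the arrays rise with length, while single arrays break that order.

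Ratios of 5p to 3p signal therefore have only a lower bound. Against the lowest detectable sum of the same array, the signal of miR-26a-5p was at least 267- to 430-fold higher, depending on the array, and that of miR-26b-5p at least 88.2- to 156-fold higher. The miR-26a-5p signal joins both genomic copies, so its value is no bound for the arm ratio of either miR-26a hairpin alone. These bounds set the signals of different probes side by side and are no ratios of molecules. No difference of the arm ratio between the groups could be computed. Of 723 hairpin names with probes for both arms, 539 had neither arm tested, 98 only the 5p arm, 62 only the 3p arm and 24 both. Among those with at least 1 arm tested, 87% had 1 arm only.

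The miRNAs whose profile over the 8 arrays was most like each 5p arm differed between the arms. Likeness was the SD over 8 arrays of the log2 difference to the arm within an array, and 283 other tested miRNAs were compared. For miR-26a-5p the most alike were let-7c-5p (SD 0.025), let-7b-5p (0.025) and let-7a-5p (0.034), where the median miRNA had 0.18. The let-7 miRNAs repress growth genes such as Lin28 and are bright in most adult tissues. For miR-26b-5p they were miR-16-5p (0.034), which represses cell cycle genes, miR-20b-5p (0.037), of a cluster related to miR-17-92, and miR-378a-5p (0.039), encoded within the metabolic coactivator gene Ppargc1b, where the median was 0.23. MiR-26b-5p ranked 42 in likeness to miR-26a-5p (SD 0.076), and miR-26a-5p ranked 17 in likeness to miR-26b-5p. The arrays share 1 slide, and the measure follows the group difference as well as the spread within groups.

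**Figure D5:**
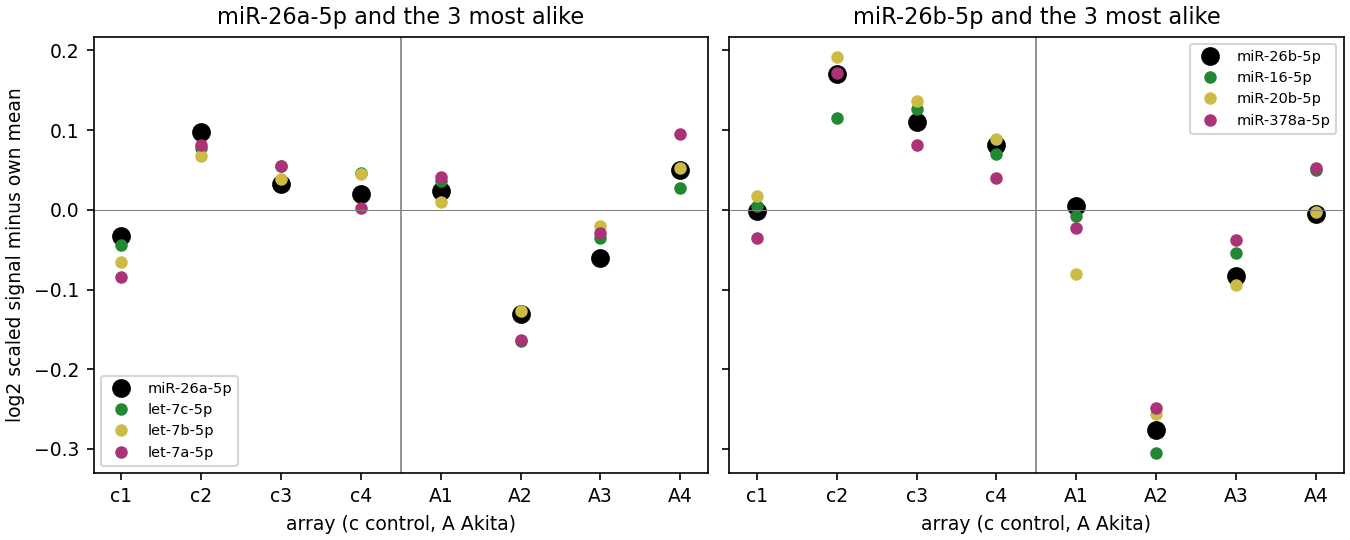
Log2 scaled signal minus its own mean over the 8 arrays, for miR-26a-5p and miR-26b-5p each with the 3 tested miRNAs most like it. The points of each panel lie close together on control and Akita arrays.

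Most tested miRNAs with targets in common with the miR-26 guides were not called, where 14.7% of all tested miRNAs were called. Of 10 miRNAs known to target Ccn2, 7 were tested, 0 were higher and 1 was lower, where 8.42% of all tested miRNAs were higher and 6.32% lower. Their median difference was 0.11 (0.06 over all tested miRNAs), and -0.16 without scaling and -0.13 with spike-ins. The one that fell was miR-19b-3p of the miR-17-92 cluster (-0.28 ± 0.07 SE, limma adjusted p = 0.0342). It passed in 14 of 26 alternatives. With 1 library left out at a time it passed in 2 of 8 fits, those without control replicate 1 and without Akita replicate 4. The call was also lost with the replicate block (limma adjusted p = 0.173), median scaling (0.052), the percentile over all probes (-0.18, 0.535), the total gene signal (0.0546), the higher floor (0.0512) and no filter (0.239). MiR-30d-5p (0.17, adjusted p = 0.122), miR-30a-5p (0.16, adjusted p = 0.141) and miR-19a-3p (-0.14, adjusted p = 0.241) did not pass. Both miR-30 differences were below 0 without scaling and with spike-ins, and both passed with quantile normalization (limma adjusted p = 0.0344 and 0.0440). That of miR-19a-3p passed without scaling (-0.41, adjusted p = 0.0036) and with spike-ins (-0.38, adjusted p = 0.0050) and was above 0 with normexp. Of 4 miRNAs known to target Ezh2, 1 was tested, miR-101a-3p (-0.05, adjusted p = 0.688). It was lower without scaling (-0.32, limma adjusted p = 0.0141) and with spike-ins (-0.29, adjusted p = 0.0080), and at 0.042 with the percentile over all probes (adjusted p = 0.910).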

How the data were processed

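Spot intensity was read from the authors' deposited scanner files, extracted per the file headers with Agilent Feature Extraction 12.0.3.1, with a fitted spatial background subtracted, no normalization between arrays, and mm9 annotation. The authors' deposited value table holds a ratio per miRNA and array and was used as an alternative. From 100 ng of labelled RNA per array, control and outlier spots were left out (2.03% to 3.02% of spots), spots were averaged for each of 4415 probes, arrays were scaled, probes of a miRNA were summed, sums below 23.8 (4.57 on the log2 scale) were raised to that floor, and log2 was taken. Testing was limited to miRNAs detected above background throughout 1 group or both. Groups came from the sample titles, and limma 3.58.1 under R 4.3.3 compared them (two-sided, Benjamini-Hochberg over 285 miRNAs, threshold 0.05, 9.16 total degrees of freedom), with exact two-sided permutation tests for within-array measures. The fit was tested on simulated data. Arrays correlated at 0.975 to 0.997 and none were identical. The number of arrays limits the precision.

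The members, the target lists and the markers were chosen with earlier results of these data known. The text names the members, the 3 miRNAs most like each 5p arm, and up to 4 of each list with the smallest p; 1 further target list is not reported here. The sums leading the share were named after their values were seen. Alternatives were other scalings, background methods, probe summaries, floors, filters and fits, the replicate block, the deposited table, and each array left out.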

Additional observations from a re-analysis of the deposited data

How the results depend on the processing

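MiR-26a-5p kept its direction and its side of the threshold in 22 of 26 alternatives, and miR-26b-5p in 21 of 26. Floors, filters, fits and the replicate block left both differences unmoved and changed only their p-values. MiR-26a-5p passed without scaling (-0.33), with spike-ins (-0.30) and with cyclic loess (-0.10), and reversed to 0.033 with the percentile over all probes. MiR-26b-5p passed without scaling (-0.45), with spike-ins (-0.42), quantile normalization (-0.20), cyclic loess (-0.20) and normexp (-0.19). Leaving out 1 array gave -0.15 to -0.037 for miR-26a-5p and -0.27 to -0.14 for miR-26b-5p, none past the threshold. The ratio of the 5p arms lost its call with quantile normalization (0.060). Their share of the signal (-0.16) lost its call there by the adjusted p only, and its exact permutation p stayed at 0.0286. Of the 25 alternatives 11 left the ratio unmoved, since a factor per array cancels in it and floors, filters and the fit do not touch it. Of the 6 that moved it without leaving out an array, 5 kept the call, at the smallest p the test can give. Leaving out 1 array gave 0.092 to 0.135 and -0.23 to -0.19.

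The number of miRNAs called was 109 without scaling (5 higher, 104 lower), 114 with spike-ins (7 and 107), 14 with the percentile over all probes (10 and 4), 70 with cyclic loess (29 and 41), 89 with normexp (81 and 8), 21 with the total gene signal, 6 with no filter and 9 with the floor raised 4 times, against 42 as reported (24 and 18). It was 18 to 37 with 1 array left out, with 21 and 18 without control replicates 2 and 3 and 20, 25 and 21 without Akita replicates 1, 2 and 3. Lower calls outnumbered higher ones in 7 of these 8 fits, with 10 higher and 27 lower without control replicate 4 and 8 and 25 without Akita replicate 4. Samples of one replicate number did not deviate together (correlations over 285 miRNAs of 0.096, -0.30, 0.34 and -0.35). With the replicate block, 25 were called and neither member passed (adjusted p = 0.770 for miR-26a-5p and 0.360 for miR-26b-5p). Paired by number, the ratio was higher in Akita in 4 of 4 pairs and the share lower in 4 of 4, and an exact sign-flip test gave p = 0.125 for each, the smallest 4 pairs allow.

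Of the listed miRNAs, without scaling and with spike-ins miR-30d-5p reversed to -0.10 and -0.074 and miR-30a-5p to -0.12 and -0.085. MiR-19a-3p reversed to 0.014 with normexp and miR-101a-3p to 0.042 with the percentile over all probes. The cause of these changes was not tested. The 3p arms were not tested under any setting with a filter, since they lie below background. With no filter they entered the fit at the floor on every array, which carries no information on their level. The share was not computed from the deposited table.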
